A study of Rattus norvegicus with 45 samples.

Results

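The comparison of heroin H3.3 WT with heroin empty asked what extra wild-type histone H3.3 alone did to the transcriptome of the ventral tegmental area (VTA) after heroin. It covered 15 of the 45 libraries of the series, one per rat. Genes were taken where at least 7 of these 15 libraries lay above the lowest value of the table, which left 20106 of 32883 genes. All rats were male Sprague-Dawley rats that self-administered heroin for 10 days and received virus into the VTA on day 11. RNA was taken after 30 days of abstinence. The 7 heroin H3.3 WT rats received a vector for wild-type H3.3 with Flag-HA and GFP tags, and the 8 heroin empty rats received the same kind of vector with GFP and no histone. The other groups had the mutant H3.3Q5A, or had self-administered saline, and they entered the fit to estimate the spread between rats. Tissue was a bulk punch guided by GFP fluorescence, so transduced cells, untransduced cells and every cell type of the punch were read together. The age of the rats was not given in the sources used here, and they were not pooled.

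H3.3 is the histone H3 variant that cells place into chromatin outside DNA replication, which makes it the main source of new H3 in neurons that no longer divide. Dedicated chaperones hand it to active genes and to repeats. Glutamine 5 of its tail can carry dopamine, a mark written by transglutaminase 2, and the H3.3Q5A mutant cannot carry it. Wild-type H3.3 keeps that residue and therefore served, next to the empty vector, as the control for the mutant.

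Of the 32883 gene identifiers, 1997 could be paired with a symbol, all of them tested. Those pairs came from a list sorted by how far the H3.3 WT and empty groups differed after saline, in rats other than the 15 described here. Named genes are therefore a selected part of the transcriptome, and this selection stands behind every count of named genes below. Of the 1997, 1113 (55.7%) were higher in heroin H3.3 WT than in heroin empty rats. Of the 1160 that were higher with H3.3 WT after saline, 988 were higher after heroin. Of the 837 that were lower after saline, 712 were lower after heroin. Counts of list members on each side are to be read beside these. The genes for H3.3 itself, H3f3a and H3f3b, the opioid genes, the mitochondrial genes and the markers of neighboring nuclei were not among the pairs, nor were the usual dopamine neuron markers. The expression of the transgene and the place of the punch were therefore not checked by name here. Reads on genes, recovered from the deposited values, ran from 28228711 to 51863605 in heroin H3.3 WT rats (median 37049912) and from 24308953 to 48081011 in heroin empty rats (median 36011865).

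No gene met the DEx criteria of the study (adjusted p under 0.05 and a log2 difference beyond 0.2 in size) when the groups were compared with limma and Benjamini-Hochberg adjustment, which is 0% of the 20106 genes. The lowest adjusted p was 0.329. At an unadjusted p under 0.05 there were 1167 genes, or 5.80% of those tested, of which 584 were higher and 583 lower in heroin H3.3 WT rats (2.90% in each direction). The even split did not hold at every level. With only the 10053 genes above the median by mean fitted, 214 of 576 such genes were higher. With quantile normalization of all genes, 476 of 1115 were higher. The study's processing also removed factors of unwanted variation, in a number not given in the sources used here. With 3 such factors taken from the residuals, 209 genes were DEx (1.04%), 173 of them higher and 36 lower. Those factors are unrelated to the groups by construction, so each gene's difference stayed the same and only the spread between rats that it was set against became smaller.

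Differences were small across the transcriptome. The median over all genes was 0.0027 on the log2 scale and 10307 genes (51.3%) were higher in heroin H3.3 WT rats. Only 79 genes differed by more than 0.5 in size and 7 by more than 1. The 95% interval of the difference had a median half-width of 0.154, with quartiles of 0.123 and 0.199. It lay wholly within 0.5 of no difference for 18864 genes (93.8%) and within 0.2 for 8453 genes (42%). These intervals are on the variance-stabilised (VST) scale, which compresses differences of genes with few reads. On the recovered reads scaled by library totals (log2, voom), 12166 genes had an interval within 0.5.

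**Figure D1:**
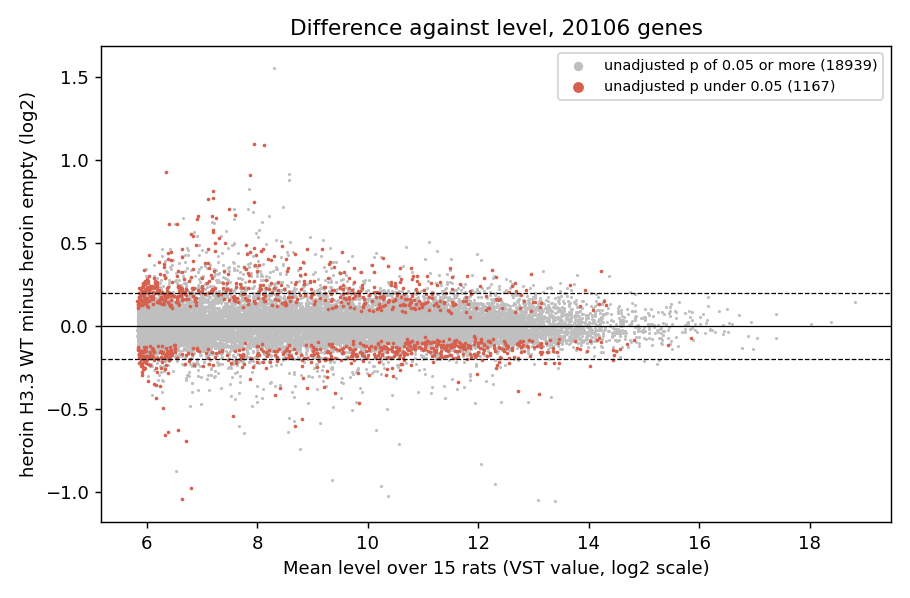
Difference of heroin H3.3 WT from heroin empty rats (log2, vertical axis) against the mean VST value over the 15 rats (horizontal axis) for the 20106 genes tested, 1 point a gene, with dashed lines at 0.2 and -0.2. The 1167 genes at an unadjusted p under 0.05 are colored, and over all levels together they lie on both sides of 0 in nearly equal numbers.

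The lowest p of the comparison belonged to ENSRNOG00000056281, a gene with few reads and no symbol in the sources used here. In heroin H3.3 WT rats it had 8.3, 20.9 and 143.2 normalised reads (lowest, median and highest of 7 rats). In heroin empty rats it had 0, 1.0 and 4.0 (lowest, median and highest of 8 rats), with 3 rats at 0. Every heroin H3.3 WT rat lay above every heroin empty rat. On the VST scale the difference was 0.93 (95% interval 0.54 to 1.32), with limma's adjusted p = 0.329. On the recovered reads it was 4.35 on the log2 scale, a value that depends on the prior count because rats stand at 0. Leaving out any 1 rat kept the difference between 0.75 and 1.02.

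ENSRNOG00000056281 was also read in the groups outside the comparison. Its median was 0.682 normalised reads in saline empty rats, of which 3 were at 0 and the highest had 3.93. It was 10.2 in saline H3.3 WT rats (range 1.26 to 52.0) and 10.4 in saline H3.3Q5A rats (range 1.79 to 80.3). In heroin H3.3Q5A rats the median was 3.08 and the range 0 to 14.4. The medians of all 4 groups with an H3.3 vector were thus above those of both empty groups, while the ranges overlapped everywhere except between heroin H3.3 WT and each empty group. Which product the identifier stands for was not looked up further.

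**Figure D2:**
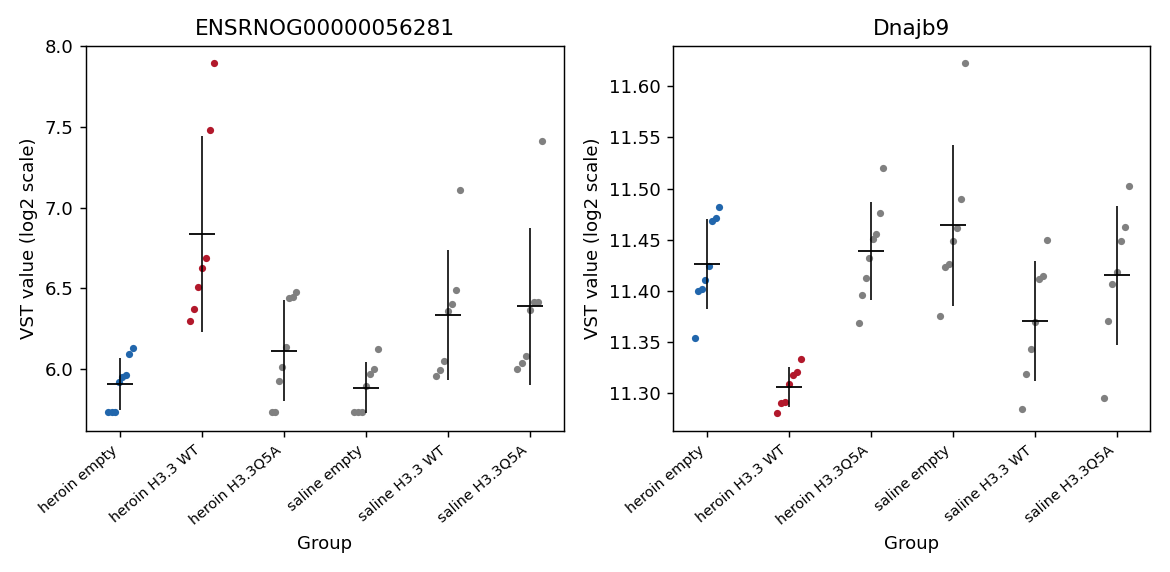
VST values (log2 scale, vertical axis) of ENSRNOG00000056281 (left) and Dnajb9 (right) in every rat of the 6 groups (horizontal axis), with the mean and SD in black and the groups compared in color. For both genes the heroin H3.3 WT rats do not overlap with the heroin empty rats.

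Only 4 genes had no overlap between the rats of the groups, 2 higher and 2 lower in heroin H3.3 WT rats (0.00995% of genes in each direction). The lower ones were Dnajb9 and ENSRNOG00000047957, and the second higher one was ENSRNOG00000009982 (difference 0.15, SE 0.052), named here after its values were seen. ENSRNOG00000047957 had 31, 36.1 and 42.5 normalised reads in heroin H3.3 WT rats and 42.5, 53.8 and 69.7 in heroin empty rats. The highest heroin H3.3 WT rat (42.518) and the lowest heroin empty rat (42.525) were nearly tied, so ENSRNOG00000047957 was barely without overlap. The difference of this gene was -0.24 on the VST scale in heroin rats and 0.15 in saline rats, so the saline groups stood the other way round. Among genes without a symbol the next by p were ENSRNOG00000057322 (0.38 higher, 95% interval 0.19 to 0.56) and ENSRNOG00000026573 (0.23 lower on the log2 scale, a difference of -0.23 with a 95% interval from -0.35 to -0.11).

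Dnajb9 (rn6, chr6:64165912-64170151, minus strand) encodes a chaperone of the endoplasmic reticulum (ER) that is induced when unfolded proteins collect there. It had VST values of 11.28, 11.31 and 11.33 in heroin H3.3 WT rats (lowest, median and highest) and of 11.35, 11.42 and 11.48 in heroin empty rats. All 7 heroin H3.3 WT rats were below all 8 heroin empty rats, and the heroin H3.3 WT rats lay close together (SD 0.019 against 0.044). The difference of -0.12 (95% interval -0.19 to -0.06) was smaller than the 0.2 that a DEx gene needs, and limma's adjusted p was 0.844. The difference in saline rats was -0.09. In heroin H3.3Q5A rats the values ran from 11.37 to 11.52 with a median of 11.44.

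The upstream sequence of Dnajb9 is shown with those of Dnajc10 and Dhcr7, because Dnajb9 was the named gene whose rats did not overlap, Dnajc10 is another ER member of the same chaperone family and Dhcr7, a sterol gene, was the second among those higher. Dnajc10 differed by -0.13 (SE 0.050), with mean VST values of 13.28 and, in heroin empty rats, 13.41. It was added by hand after the other genes had been named, so its direction is no support for a pattern shared with Dnajb9. The stretches are the 250 bases before the start site in RefSeq on GRCr8, at chr6:67002052-67002301, minus strand for Dnajb9, at chr3:85639339-85639588, plus strand for Dnajc10 and at chr1:208444184-208444433, plus strand for Dhcr7. Capitals mark CCAAT and CCACG on either strand, the letters of both ends of the ER stress element. CCAAT was present in 34.3% and CCACG in 28% of 27457 such windows.
Dnajb9: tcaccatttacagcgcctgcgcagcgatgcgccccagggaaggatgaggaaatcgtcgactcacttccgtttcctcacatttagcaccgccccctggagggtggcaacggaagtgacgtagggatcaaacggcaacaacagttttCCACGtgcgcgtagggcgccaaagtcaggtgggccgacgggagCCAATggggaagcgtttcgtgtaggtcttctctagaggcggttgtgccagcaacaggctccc
Dnajc10: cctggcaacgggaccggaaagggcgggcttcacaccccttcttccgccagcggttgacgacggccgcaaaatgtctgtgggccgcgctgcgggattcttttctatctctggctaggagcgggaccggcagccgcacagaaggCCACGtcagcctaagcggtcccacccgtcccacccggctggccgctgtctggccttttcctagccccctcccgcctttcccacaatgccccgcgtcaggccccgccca
Dhcr7: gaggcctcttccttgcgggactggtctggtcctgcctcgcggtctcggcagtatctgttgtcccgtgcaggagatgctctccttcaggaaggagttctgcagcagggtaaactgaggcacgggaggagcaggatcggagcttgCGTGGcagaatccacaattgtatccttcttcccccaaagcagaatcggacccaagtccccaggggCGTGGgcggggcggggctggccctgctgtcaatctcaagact
Dnajb9 held both words once, Dnajc10 held CCACG once and Dhcr7 held CCACG on the other strand at 2 places. The full element, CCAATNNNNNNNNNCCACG, was in none of the 3 windows and in 0.1% of all windows. The sterol word TCACNCCAC, searched on both strands, was in none of the 3 and in 1.0% of all windows.

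Genes of protein folding and stress showed no common direction. Of 22 genes on that list 13 were measured, 6 higher and 7 lower, with a median difference of -0.018. Apart from Dnajb9, an unadjusted p under 0.05 was reached by Dnajb4 (a cytosolic Hsp40 co-chaperone) and Txnrd1 (thioredoxin reductase), all 3 lower. At that p 2.90% of all genes were lower, and 103 of the 1997 named genes, from which the list members come. Dnajb4 had VST values of 11.70, 11.81 and 12.03 in heroin H3.3 WT and 11.89, 12.01 and 12.14 in heroin empty rats, a difference of -0.19 (SE 0.061). Txnrd1 differed by -0.09 (SE 0.042). Hsf1, the heat shock transcription factor, differed by 0.18 (SE 0.106) and Nr1d2, a clock repressor, by -0.14 (SE 0.087). The groups overlapped in these 4 genes, and the adjusted p of each was between 0.844 and 0.85.

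The other named genes lowest in p and lower in heroin H3.3 WT rats had differences between -0.10 and -0.19. Rab39a, a small GTPase of vesicle traffic, had VST values of 10.97, 11.07 and 11.19 against 11.15, 11.25 and 11.36 in heroin empty rats. In 6 of 7 heroin H3.3 WT rats it was below every heroin empty rat, and the difference was -0.18 (SE 0.058). Polr2k, a subunit shared by the RNA polymerases, had 10.03, 10.27 and 10.42 against 10.35, 10.41 and 10.51, with 5 of 7 rats below every heroin empty rat and a difference of -0.16 (SE 0.047). The groups of both genes overlapped in the remaining rats. Xpo5, which exports microRNA precursors, differed by -0.10 (SE 0.032), and Cenpc, a centromere protein, by -0.19 (SE 0.067). Cggbp1, which binds CGG repeats, differed by -0.18, the importin family gene Ranbp6 by -0.19, Epm2aip1 by -0.18 and the Arp2/3 subunit gene Arpc5l by -0.13. Each had limma's adjusted p = 0.844.

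Among named genes higher in heroin H3.3 WT rats the lowest p was that of Kirrel3 (rn6, chr8:36125998-36254753, plus strand), a synaptic adhesion protein. Its VST values were 11.43, 11.60 and 11.89 in heroin H3.3 WT rats and 11.24, 11.35 and 11.65 in heroin empty rats. All 7 heroin H3.3 WT rats were above the heroin empty median and 3 were above every heroin empty rat, with a difference of 0.23 (SE 0.063). Dhcr7 (rn6, chr1:217018915-217034904, plus strand), an enzyme of the last step of cholesterol synthesis, had 10.45, 10.65 and 10.75 against 10.28, 10.39 and 10.67, a difference of 0.19 (SE 0.055). Again 3 of 7 rats were above every heroin empty rat. Relb, a subunit of NF-kB, had 7.93, 8.10 and 8.23 against 7.83, 7.96 and 7.98, with 5 of 7 rats above and a difference of 0.17 (SE 0.056). The groups overlapped in all 3 genes.

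Fgf22, a presynaptic organizer, differed by 0.23 (SE 0.084), with 5 of 7 heroin H3.3 WT rats above every heroin empty rat. Fgfrl1, a fibroblast growth factor receptor that lacks the kinase, differed by 0.32 (SE 0.119), and Spry2, a feedback inhibitor of receptor tyrosine kinases, by 0.19 (SE 0.070). Prex1, an activator of Rac, differed by 0.22 (SE 0.073), Zbtb22, a zinc finger protein, by 0.26 (SE 0.090), Mpv17, of the inner mitochondrial membrane, by 0.22 (SE 0.079) and Ccdc102a by 0.25 (SE 0.074). For all of them limma's adjusted p was 0.844. The direction of each of the 20 genes held whichever rat was left out. The genes were chosen by low p in these same rats, so this was likely beforehand and is no separate support.

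**Figure D3:**
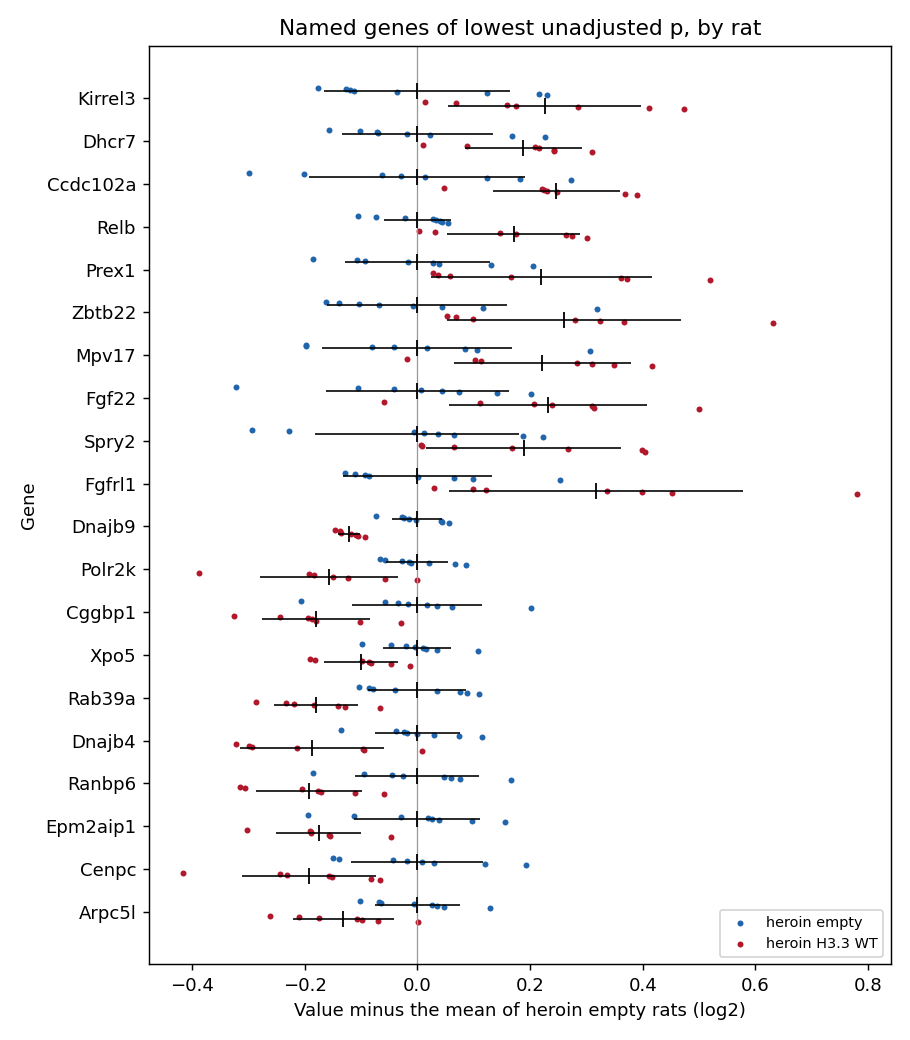
VST value of each rat minus the mean of the heroin empty rats (log2, horizontal axis) for the 10 named genes of lowest unadjusted p in each direction (vertical axis), with the mean and SD of each group in black. Dnajb9 is the one gene shown whose groups do not overlap.

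The measured part of the machinery that places H3.3 differed little. Hira, the gene of a main H3.3 chaperone, was not among the measured genes. Of 15 genes on the list of H3.3 chaperones and deposition 8 were measured, of which 1 was higher and 7 lower, with a median of -0.042 and none at an unadjusted p under 0.05. Every 95% interval lay within 0.5. Supt16h and Ssrp1, the partners in the FACT complex, differed by -0.08 (95% interval -0.20 to 0.04) and -0.03 (-0.13 to 0.07). Hirip3, a partner of the H3.3 chaperone HIRA, differed by -0.01 (-0.17 to 0.14), and Cabin1, another HIRA complex member, by 0.09 (-0.06 to 0.25). The remodelers Chd1 and Chd2 differed by -0.04 and -0.05, and Dek and Nasp, which also carry histones, by -0.06 each. In saline rats 7 of the 8 were lower, with a median of -0.171. Without heroin H3.3 WT rat 51 Ssrp1 had a difference of 0.011 in place of its negative one, and the sign of Hirip3 depended on single rats.

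Tgm2, the transglutaminase that writes dopamine onto H3 and the 1 measured gene of 8 on that list, had VST values of 8.98, 9.67 and 10.14 in heroin H3.3 WT rats and 8.72, 9.66 and 10.13 in heroin empty rats. The groups covered almost the same range, with a difference of -0.05 (95% interval -0.45 to 0.35) whose sign turned in 4 of the fits that left out 1 rat. In saline rats the difference was 0.55. The interaction of drug and vector for Tgm2 was -0.60, with limma's adjusted p = 0.902.

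Of 43 histone and chromatin regulators 22 were measured, 10 higher and 12 lower, with a median of -0.010 and every interval within 0.5. Smarca5, the ISWI remodeler, had VST values of 11.19, 11.40 and 11.49 in heroin H3.3 WT rats and 11.30, 11.54 and 11.68 in heroin empty rats. All 7 heroin H3.3 WT rats were below the heroin empty median, with a difference of -0.14 (SE 0.059). The arginine methyltransferase Carm1 differed by 0.12 (SE 0.064), the polycomb protein Cbx6 by 0.08 (SE 0.061), the H3K9 methyltransferase Ehmt2 by 0.11 (SE 0.085) and the BAF ATPase Smarca4 by 0.06 (SE 0.060). None was DEx.

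No gene of the synaptic or neuronal lists was DEx without residual factors. Of 25 synaptic genes 18 were measured, 14 higher and 4 lower, with a median of 0.120, where all named genes had 0.020. With 1 rat left out it lay between 0.066 (without heroin H3.3 WT rat 51) and 0.176, and it was 0.075 without heroin empty rat 16. Shank1, a scaffold of the postsynaptic density, had VST values of 13.87, 14.41 and 14.80 against 13.64, 14.11 and 14.51, a difference of 0.33 (SE 0.140). Syt4, a synaptotagmin, had 13.35, 13.99 and 14.19 against 13.76, 14.21 and 14.34, a difference of -0.24 (SE 0.092), and all 7 heroin H3.3 WT rats were below the heroin empty median. These 2 had an unadjusted p under 0.05, and their groups overlapped. Dnm1, Cplx1 and Syn1, of vesicle recycling and release, differed by 0.05, 0.14 and 0.11. In bulk tissue, fewer cells of a type and less RNA per cell cannot be told apart.

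Of 15 neuronal markers 9 were measured, 6 higher and 3 lower (median 0.085). The 3 lower ones were the RNA-binding protein Elavl2 at -0.19 (SE 0.080), the prohormone convertase Pcsk2 at -0.18 (SE 0.092) and Scg3 of secretory granules at -0.04 (SE 0.052). The 6 higher ones reached 0.138, with the surface protein Thy1 at 0.09 (SE 0.076) and Syn1, also on this list, at 0.11. The median of this list turned to -0.026 without heroin H3.3 WT rat 51. It was 0.0105 without heroin H3.3 WT rat 11 and heroin empty rat 2, a pair chosen after the data were seen. The mean over its genes had a median of 13.02 over the heroin H3.3 WT rats and 13.05 over the heroin empty rats. Of 23 genes of ion channels and excitability 12 were measured, 7 higher and 5 lower (median 0.063, and 0.033 to 0.102 with 1 rat left out). Hcn2, a pacemaker channel, had VST values of 12.99, 13.46 and 13.76 against 12.57, 13.11 and 13.64 in heroin empty rats, a difference of 0.33 (SE 0.168). The calcium pump Atp2b2 differed by 0.06 and the leak channel Nalcn by -0.14.

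Adcy5, the adenylate cyclase downstream of dopamine receptors, was the 1 measured gene of 23 on the dopamine list. It had VST values of 12.71, 12.85 and 13.04 in heroin H3.3 WT rats and 12.65, 12.74 and 12.87 in heroin empty rats, a difference of 0.09 (95% interval -0.03 to 0.21). Of 21 genes of GABA and glutamate transmission 7 were measured, 3 higher and 4 lower (median -0.017). The NMDA receptor subunit Grin2c differed by 0.25 (SE 0.130), the metabotropic receptor Grm3 by 0.19 (SE 0.154) and the kainate receptors Grik4 and Grik2 by 0.04 and -0.02. Of 22 immediate early genes 6 were measured, 4 higher and 2 lower (median 0.050). Srf, the transcription factor that drives such genes, differed by 0.16 (SE 0.085), Ier2 by 0.21, Ier3 by 0.04, Gadd45g by -0.07 and Btg1 by -0.09.

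No gene of the glial lists was DEx without residual factors, and the groups overlapped in every glial list mean. All 17 measured genes of the 20 on the list of oligodendrocytes and myelin were higher, with a median of 0.150 and none at an unadjusted p under 0.05. The same 17 were higher after saline, and 988 of the 1160 named genes higher after saline were higher after heroin. The mean of the list over its genes was 13.25, 13.57 and 14.19 in heroin H3.3 WT rats and 12.86, 13.52 and 13.96 in heroin empty rats. The highest rat was heroin H3.3 WT rat 11 and the lowest was heroin empty rat 2. Without these 2 rats the median was -0.032, and with any 1 rat left out it lay between 0.047 and 0.230. The 2 rats were chosen after the data were seen and are the ends of this list. Leaving them out therefore lowers the difference by construction, and the -0.032 does not show that there was none. The iron carrier Tf differed by 0.18 and the myelin protein Mbp by 0.14 (SE 0.187).

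Of 12 genes of oligodendrocyte precursors 8 were measured, 7 higher and 1 lower (median 0.187, and 0.114 without the same 2 rats). Olig2 and Olig1, the lineage transcription factors, differed by 0.22 (SE 0.132) and 0.18 (SE 0.140), the proteoglycan Cspg4 by 0.04 and Bmp4 by -0.02. All 6 measured astrocyte markers of 15 were higher, with a median of 0.069 that was 0.002 without the 2 rats and 0.020 to 0.124 with 1 rat left out. The same 2 rats were the ends of the astrocyte list mean, so leaving them out lowers this difference by construction too. Hepacam, an astrocyte adhesion protein, differed by 0.22 (SE 0.136), the neurotensin receptor Ntsr2 by 0.13 and the glycolytic enzyme Aldoc by 0.05. Of 15 microglial markers 4 were measured, 3 higher and 1 lower (median 0.109). The microglial transcription factor Spi1 differed by 0.16, the chemokine receptor Cx3cr1 by 0.14 (SE 0.118), Cd180 by 0.08 and Alox5ap by -0.03.

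Vascular and border cell lists likewise held no DEx gene. Of 15 endothelial markers 11 were measured, 10 higher and 1 lower (median 0.131). That median was 0.037 without heroin H3.3 WT rat 11 and heroin empty rat 2, and 0.075 to 0.163 with 1 rat left out (lowest without heroin H3.3 WT rat 11). The 2 rats were the ends of the endothelial list mean as well, so leaving both out lowers the difference by construction. Emcn, endomucin, had VST values of 8.76, 8.97 and 9.26 against 8.48, 8.83 and 8.88 in heroin empty rats, with 4 of 7 rats above every heroin empty rat and a difference of 0.19 (SE 0.083). Tie1 differed by 0.15, Eng by 0.07 and Icam2 by -0.04, and von Willebrand factor, Vwf, was level (0.001, SE 0.151). Mural and smooth muscle markers were lower for 7 of the 11 measured of 15, with a median of -0.227. The mean of that list was 8.77, 9.07 and 9.58 in heroin H3.3 WT rats and 8.96, 9.22 and 9.84 in heroin empty rats, and the groups overlapped. With any 1 rat left out the median stayed between -0.311 and -0.117. The filament gene Des differed by -0.36 (SE 0.266) and the kinase Mylk by -0.17, while the pericyte genes Pdgfrb and Notch3 differed by 0.06 each and Foxs1 by 0.08.

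Meningeal and fibroblast markers were measured for 10 of 16 genes, 3 higher and 7 lower (median -0.073). Their list mean reached 10.05 in heroin empty rat 5, above the other heroin empty rats, and the median of the list was 0.067 without that rat. The collagen Col1a1 differed by -0.37 (SE 0.366), Mgp by -0.28, Fbln1 by -0.10, Igfbp2 by -0.01 and Foxd1 by 0.08. Of 9 blood genes 8 were measured, 2 higher and 6 lower (median -0.131). The globins Hbb, Hba-a2, Hba-a1 and Hba-a3 differed by -0.37, -0.26, -0.15 and -0.12 with SEs between 0.237 and 0.345. The Hba genes are near-identical copies whose reads the counting may have split. With 1 rat left out the median of the blood list lay between -0.202 and -0.052. The platelet gene Pf4 differed by 0.02. Of 31 genes of the extracellular matrix 18 were measured, 11 higher and 7 lower (median 0.057). The membrane protease Mmp14 had 8.72, 9.04 and 9.74 against 8.41, 8.62 and 9.61, a difference of 0.46 (SE 0.209), while Adamts4 differed by 0.23 and the brain proteoglycans Ncan and Bcan by 0.08 and 0.06.

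Of 15 markers of ependyma and choroid plexus 8 were measured, 6 higher and 2 lower (median 0.093). The cilium genes Rsph1, Drc1 and Rsph9 differed by 0.36 (SE 0.237), 0.22 and 0.12, Ccdc39 by 0.02 and Best1 by -0.02. The list mean was highest in heroin empty rat 2, the rat lowest in myelin genes, and the median was 0.328 without that rat and heroin H3.3 WT rat 11. Rat 11 was the lowest heroin H3.3 WT rat of this list, so leaving out the pair raises the difference by construction. Pituitary genes were near the floor, with 3 of 9 measured. Cga, a hormone subunit, had 0, 1.1 and 30.3 normalised reads in heroin H3.3 WT rats and 0, 6.6 and 1247 in heroin empty rats, Tshb differed by -0.30 and Tbx19 by 0.18.

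**Figure D4:**
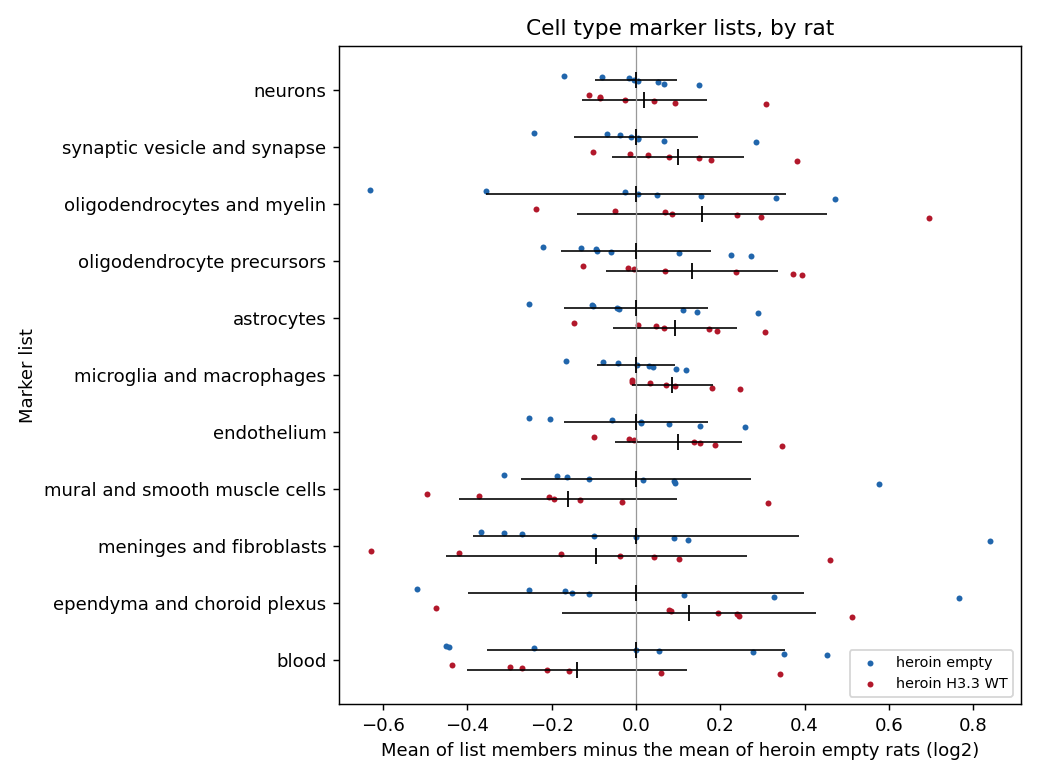
Mean VST value over the measured genes of each cell type list (vertical axis) in each rat, minus the mean of the heroin empty rats (log2, horizontal axis), with the mean and SD of each group in black. The groups overlap in every list, and heroin empty rat 2 and heroin H3.3 WT rat 11 are the ends of the myelin list.

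Lists of housekeeping and immune functions had medians between -0.041 and 0.073. Splicing and RNA binding, with all 36 listed genes measured, had 14 higher and 22 lower (median -0.011). Some lists were drawn from the symbols available, so full coverage of this list and of the cilia list is not full coverage of the function. Snrpd1, an Sm protein, differed by -0.18, Sfpq by 0.18, Sf1 by 0.11, Hnrnpu by -0.01 and Luc7l3 by 0.02. Cilia and centrosome genes were lower for 19 of 23 (median -0.038), with differences from -0.103 to 0.087. That median was -0.0023 without heroin H3.3 WT rat 11 and heroin empty rat 2, and -0.069 to -0.011 with 1 rat left out (nearest to 0 without heroin empty rat 2). In this list the pair were the lowest heroin H3.3 WT rat and the highest heroin empty rat, so leaving both out brings the groups closer by construction. Within it Bbs4 and Cep350 differed by -0.10 each, C2cd3 by 0.09, Pcm1 by -0.05 and Ahi1 by -0.04. All 23 intervals lay within 0.5. None of the 23 was higher after saline. Of the 837 named genes lower after saline 712 were lower after heroin, so the count of 19 is near that background. The respiratory chain list had 16 of 24 measured, 11 higher and 5 lower (median 0.015), with Cox16, an assembly factor, at -0.11 (SE 0.052), Cox10 at 0.09, Ndufv1 at 0.04, Cox6a1 at 0.03 and Atp5mc3 at 0.01. Of 21 genes of cytokine receptors and NF-kB 12 were measured, 9 higher and 3 lower (median 0.073). Beside Relb, Litaf differed by 0.19, the receptor Cntfr by 0.15, the chemokine Cxcl12 by 0.08 and the inhibitor Nfkbia by -0.04. Of 26 interferon genes 5 were measured, 3 higher and 2 lower (median 0.020), with Tnfsf10 at 0.25, Samhd1 at 0.06, Trank1 at 0.02, Tbk1 at -0.03 and Ifitm2 at -0.11. Rfx5 was the 1 measured gene of 17 for complement and antigen presentation, at -0.04.

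Residual factors changed the calls. With 3 factors the 209 DEx genes had a median size of 0.271 and 122 of them had been at an unadjusted p under 0.05 without factors. All 209 were also DEx with 4, 5 and 6 factors, numbers tried after the data were seen. Those fits contain the first 3 factors and leave every difference as it was. That all 209 stayed was thus largely set in advance and is no support for the calls. Of the 1997 named genes 86 were DEx (4.31%), 84 higher (4.21%) and 2 lower, beside 1.04% of all genes. The named genes lowest in adjusted p with 3 factors were Rnf126, a ubiquitin ligase (difference 0.29, limma's adjusted p = 0.000136), Lrrc4b, a synaptic adhesion protein (0.21, 0.000316), and Tmcc2 (0.22, 0.000762). Without factors their groups overlapped: Rnf126 had VST values of 10.48, 10.83 and 11.19 in heroin H3.3 WT rats and 10.11, 10.48 and 11.04 in heroin empty rats. On the lower side Rufy3, Ero1a and Skp1 had the lowest p, but their differences of -0.15, -0.16 and -0.15 were within the 0.2 that a DEx gene needs.

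With 3 factors the lists gained 3 higher DEx genes among myelin genes, 2 higher and 1 lower among synaptic genes, 1 higher each among ion channels, oligodendrocyte precursors and astrocytes, and none in the other lists. The background was 4.21% of named genes DEx higher and 2 of 1997 lower, beside 0.860% and 0.179% of all genes. They included Hcn2 (limma's adjusted p = 0.000984), Shank1 (0.00115), Syt4 (0.0151), Olig2 (0.0256) and Hepacam (0.0332). The factors held 22.7%, 10.7% and 9.91% of the residual variance. Over 44 rats the first moved with the myelin list (r = 0.835) and against the ependyma list (r = -0.891), and the second with the stress list (r = 0.872) and the extracellular matrix list (r = 0.842). Those are descriptions of factors and lists drawn from the same libraries. The part of tissue composition in the calls was not tested.

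The interaction of drug and vector asked whether H3.3 WT against empty differed between heroin and saline. No gene met the DEx criteria in limma (0%), and the lowest adjusted p was 0.531. An unadjusted p under 0.05 was found for 1017 genes (5.06%). The count of DEx genes was 371 once 3 residual factors were in the model. In saline rats alone no gene was DEx (0%), although 3638 genes (18.1%) had an unadjusted p under 0.05 and the lowest adjusted p was 0.176. Differences were smaller after heroin, with an SD over genes of 0.110 against 0.152 after saline.

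The saline and heroin comparisons share no rat. Over all 20106 genes their differences had the same sign for 12516 genes (62.3%), with r = 0.133 and rho = 0.286 across genes. Without heroin empty rat 2 r was -0.014, and with any other rat left out it reached at most 0.243. Over the 1997 named genes, which had been picked for a saline difference, 1700 (85.1%) had the same sign, r was 0.557 and rho 0.617, and r was 0.378 without heroin empty rat 2. Of these genes 165 (8.26%) had an unadjusted p under 0.05 after heroin, 62 higher and 103 lower, beside 5.80% of all genes. Genes vary together across rats and are not independent replicates, so no p is given. The median span of the gene in rn6 was 12.5 kb for the 62 higher genes, 26.5 kb for the 103 lower ones and 20.9 kb for the other named genes. The quartiles overlapped, at 3.3 to 34.1 kb, 13.8 to 45.8 kb and 8.3 to 46.4 kb. The sets also differed in level, with median VST values of 9.55, 11.39 and 10.87. A relation to gene length was not tested.

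The marker lists of mural, blood, meningeal and ependymal cells stood on opposite sides of 0 after saline and after heroin. This was not particular to them. The lists of stress (0.24 and -0.018), interferon (-0.163 and 0.020) and ion channels (-0.020 and 0.063) did so too, as did Tgm2. The median of the mural list was 0.619 in saline rats and -0.227 in heroin rats, with 8 of 11 genes at an unadjusted interaction p under 0.05, against 5.06% of all genes. The blood list had 0.667 and -0.131, with 6 of 8 genes, and the meningeal list 0.638 and -0.073, with 4 of 10. Without heroin empty rat 5 the meningeal median after heroin was 0.067, on the same side as after saline. The ependyma list went from -0.412 to 0.093, with 4 of 8. Other lists held genes at such an interaction p as well, with 11 of 36 for splicing, 6 of 23 for cilia and 5 of 18 for the extracellular matrix. The genes were named for their saline differences, which enter the interaction, so these counts describe the lists and test nothing. The myelin list was higher in both drug groups, with medians of 0.441 and 0.150 and no gene at an unadjusted interaction p under 0.05.

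**Figure D5:**
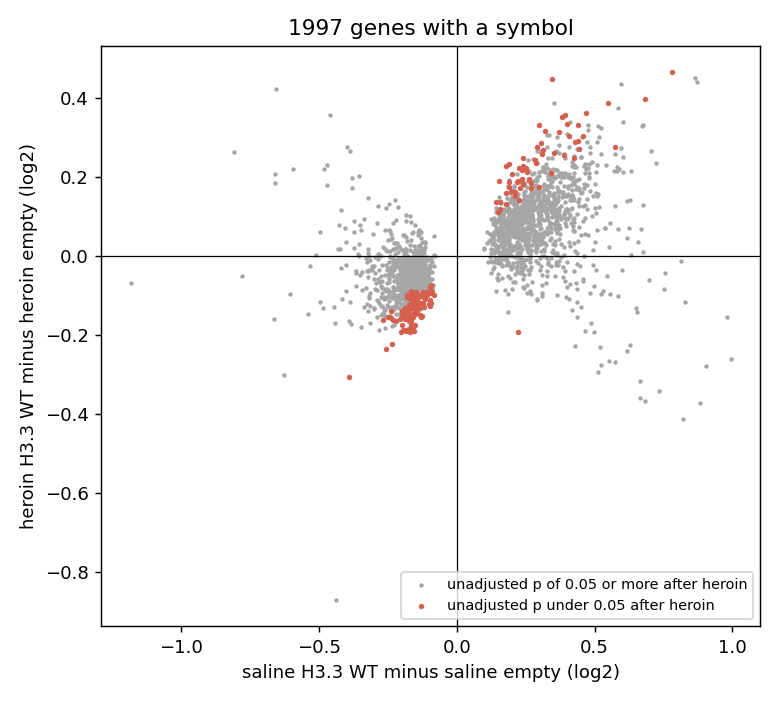
Difference between H3.3 WT and empty rats after heroin (log2, vertical axis) against the same difference after saline (log2, horizontal axis) for the 1997 genes with a symbol, 1 point a gene, with genes at an unadjusted p under 0.05 after heroin in color. Most points lie in the quadrants of equal sign, and the empty band around 0 on the horizontal axis shows that symbols were available for genes with a saline difference.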

How the data were processed

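RNA sequencing of VTA punches was analysed in the 15 rats described above, with 29 further rats of the other 4 groups in the same fit. Per the labels and the study's methods, the authors aligned poly(A) reads from 2 flow cells with HISAT2 (2.1.0) to Rnor_6.0, counted them with featureCounts (2.0.1) and deposited DESeq2 (2.11.40.6) variance-stabilised values on a log2 scale, 1 column a library; no column was left out as unmapped. They removed unwanted variation with RUVr in an unstated number of factors. The series text names a lentivirus and the methods AAV2. Undoing the transformation gave whole reads for every value tested (tolerance 0.01 read).

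Groups came from the labels. One library with conflicting labels was left out. Values were fitted with limma (3.58.1; R 4.3.3) with a mean-variance trend over 6 groups and adjusted by Benjamini-Hochberg. DEx genes needed an adjusted p under 0.05 and a log2 difference beyond 0.2. The fit was tested on simulated data. Genes named were all measured chaperones and transglutaminases, in each other list the DEx genes or else the lowest p in each direction and up to 3 of the highest mean, the 10 named genes of lowest p in each direction, at most 2 without a symbol in each direction, and the 3 of lowest adjusted p in each direction with 3 residual factors. Dnajc10 and ENSRNOG00000009982 were added afterwards. Members and lists were chosen with earlier results of these data known, and some lists were drawn from the symbols available. Nothing shows that libraries were technical repeats: all 49 pairs within a group differed beyond sampling noise. Promoter windows were matched by symbol for 1515 of 1997 named genes. A few genes that the rule selected are not reported here.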

Additional observations from a re-analysis of the deposited data

Results flagged for a closer look

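In 8 of the 134 groups of values checked, 1 rat lay far from the others, where chance alone gives about 6.7. In heroin H3.3 WT rats, rat 51 was lowest for Hirip3 (10.4 against 10.7 to 10.9 in the others) and for Ssrp1 (12.05 against 12.3 to 12.4) and highest for the mean of the ion channel list (11.9 against 11.7 to 11.8), all in VST values. Rat 11 was lowest for the interferon list (9.66 against 9.81 to 9.90). In heroin empty rats, rat 5 was highest for the lists of extracellular matrix (10.3 against 9.68 to 9.96), meninges and fibroblasts (10.0 against 8.84 to 9.33) and mural and smooth muscle cells (9.84 against 8.95 to 9.36); Col1a1 is on the matrix and the meningeal list. Rat 21 was highest for the pituitary list (8.61 against 6.54 to 7.28), which holds 3 genes.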

How the results depend on the processing

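No DEx gene appeared without filter, above the median by mean, with median centring, quantile normalization, array weights, read totals, voom, only the groups compared, the conflicting library in either group, an adjusted p under 0.1, no fold threshold or any 1 rat left out. The exceptions were residual factors: 2 and 3 gave 2 and 209 DEx genes, and 4, 5 and 6, chosen after seeing the data, gave 359, 458 and 522. DEx genes of the interaction were 23, 124 and 371 with 1, 2 and 3 factors and 577, 769 and 904 with 4, 5 and 6. Factors leave differences as they are and lower the residual spread. Genes at an unadjusted p under 0.05 were 2526 and 3405 with 2 and 3 factors, 3597, 3846 and 4136 with 4, 5 and 6, 576 above the median by mean (fewer genes tested) and 780 to 1772 with 1 rat left out (lowest without heroin H3.3 WT rat 20, highest without heroin empty rat 7). Genes with an interval within 0.5 were 9617 above the median by mean and 12166 with voom. Leaving out 1 rat gave Ssrp1 -0.055 to 0.011 (above 0 without heroin H3.3 WT rat 51), Tgm2 -0.178 to 0.049 and Hirip3 -0.057 to 0.040. Hirip3 was 0.0035 with array weights and 0.0066 without heroin H3.3 WT rat 11 and heroin empty rat 2, a choice made after seeing the data. The cause of these reversals was not tested. Among the 42 genes of chaperones, Tgm2, stress and lowest p followed through every alternative, no other difference reversed. Of all 145 genes named by rule, 27 changed sign with some 1 rat left out, all with differences of 0.140 or less in size. The median changed sign with 1 rat left out in 7 of 24 lists (neurons, GABA and glutamate, chromatin regulators, meninges, interferon, splicing, stress). No paired analysis was possible because the groups compared share no replicate number.

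Depth limits genes with few reads, whose differences the VST scale compresses.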
